A study of Mus musculus with 8 samples.

Results

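The genes described here are 32 transcripts by which the endoderm of the yolk sac makes and takes up proteins and lipids. They comprise apolipoproteins and their loading factor, plasma carriers and protease inhibitors, clotting factors, uptake receptors, and genes of an absorptive epithelium. They were chosen by name, from their known roles, among the 41709 gene symbols of the deposited table, and all 32 were found in it. The libraries are of RNA from 8 whole mouse embryos of embryonic day 9.5, all from crosses of parents heterozygous for K399A, an amino acid substitution in the Hedgehog transducer Smoothened. Of these, 4 were Smo+/+ (WT) and 4 were SmoK399A/K399A (mutant). Several litters contributed, with no litter given per embryo, and how much of the yolk sac stayed with an embryo at dissection is not stated in the labels. Values are TPM, a measure of transcript abundance in which reads are divided by gene length and each library is scaled to the same total. The comparison of mutant with WT asks how the transcriptome differs when Smoothened carries the substitution.

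The visceral endoderm of the yolk sac is an absorptive epithelium that feeds the rodent embryo before the placenta and the liver take over. On its outer face the receptor cubilin and its partner amnionless capture proteins from the surroundings, and lysosomes break them down. The same cells secrete plasma proteins that the liver makes later, among them alpha-fetoprotein, transthyretin, transferrin and apolipoproteins, the last of which carry lipid toward the embryo. Many of these genes are also transcribed in the first cells of the liver bud, and a few, such as Apoe and Dab2, in many other tissues. In RNA from whole embryos, fewer cells of a type and less RNA per cell cannot be told apart.

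Between 59.08 and 60.45 M reads (M, mega) per library could be recovered from the steps between TPM values. Every member came out at a whole number of reads in every embryo. Genes were tested by limma on log2(TPM + 1) when at least 1 TPM was reached in at least 4 embryos (13596 genes), and 0 genes passed an adjusted p under 0.05, with 1842 at an unadjusted p under 0.05. The libraries of mutants 3 and 4 stood apart, with median-ratio size factors of 0.924 and 0.940 against 1.007 to 1.048 in the other 6. Genes of tissues of the embryo proper were present in each library, such as Sox2 of neural and foregut progenitors, at 103 TPM (mutant 1) to 199.6 TPM (WT 2).

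The members were far from evenly distributed over the embryos, and the order of embryos did not follow genotype alone. Their summed level was 121, 153, 438 and 107 TPM in WT 1 to 4 and 2051, 1274, 404 and 291 TPM in mutants 1 to 4. Mutants 1 and 2 were thus the highest and WT 3 lay above mutants 3 and 4, while WT 1, 2 and 4 were the lowest. Mutant 1 was the highest embryo for 31 of the 32 members, and mutants 1 and 2 exceeded the other 6 embryos for 30, the exceptions being Apoh and Ambp. WT 3 was the highest WT embryo for 28 members, with Apoh, Ambp, Serpina1b and Prap1 as exceptions, and it exceeded mutant 4 for 26 and mutant 3 for 18. Both mutant 3 and mutant 4 exceeded WT 1, 2 and 4 for 25 members. At least 1 TPM was reached by 13, 13, 28 and 14 members in WT 1 to 4 and by 31, 31, 28 and 25 in mutants 1 to 4.

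**Figure D1:**
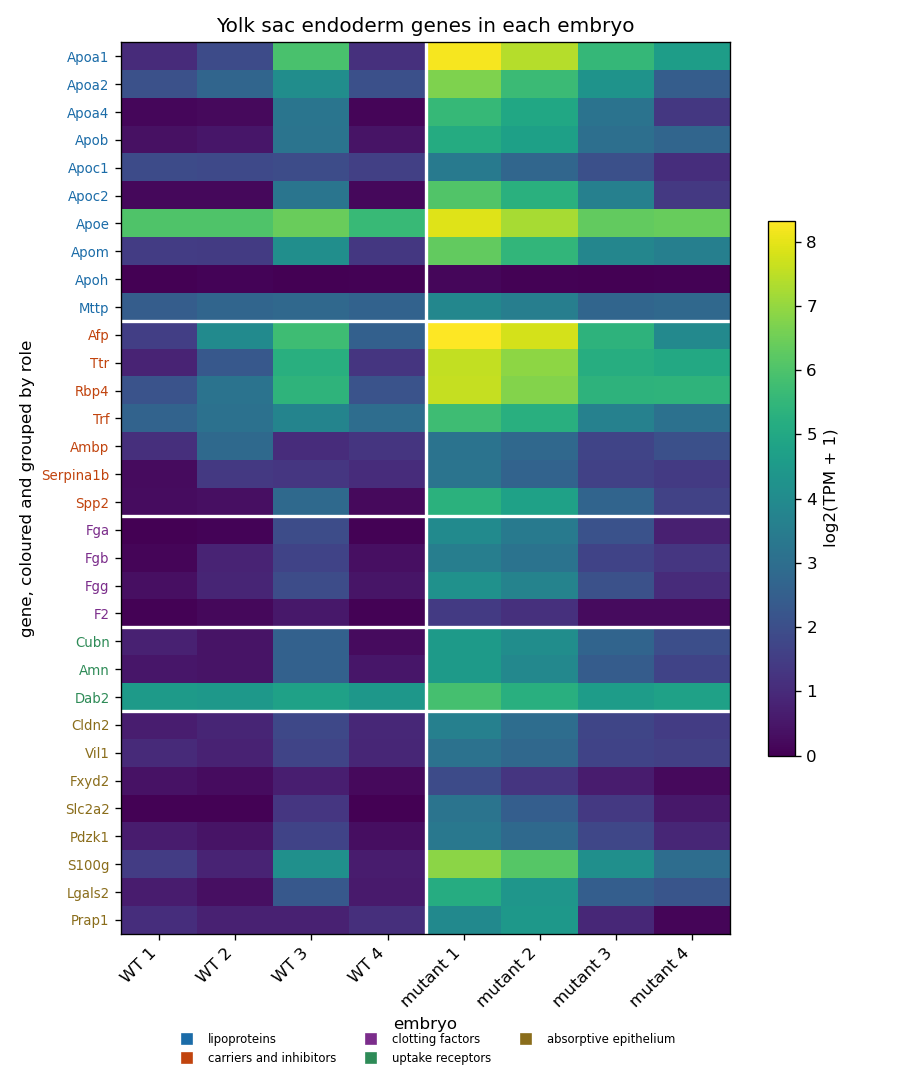
Level of each of the 32 genes (rows, grouped by role) in each of the 8 embryos (columns), as log2(TPM + 1) by colour; the white vertical line separates WT from mutant. Mutants 1 and 2 are brightest for most rows, WT 3 resembles mutant 3, and Apoe and Dab2 are bright in all embryos.

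No member passed the test over all genes. The background for this rule was 0% of 13596 genes called, and the adjusted p values of the 29 members tested ran from 0.281 to 0.559 (limma). Of those 29, 26 were higher in mutants at an unadjusted p under 0.05, a rule that 5.55% of all genes tested met in that direction. The filter could admit a member mainly through high mutants. The members also share their embryos and were chosen with earlier results of these data known. This count therefore carries no weight of its own. All 29 tested members had a log2 fold change above 0, as did 37.7% of all genes tested. The median over these members was 2.05, against -0.04 over all genes tested. Mean TPM was higher in mutants for all 32 members, a measure for which no share over all genes is given. The values of the genotypes did not overlap for 1 member, Serpina1b, where the background was 3.63%. Without mutants 3 and 4 the median over tested members was 3.21, and without mutants 1 and 2 it was 0.77, against 2.05 with all embryos.

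**Figure D2:**
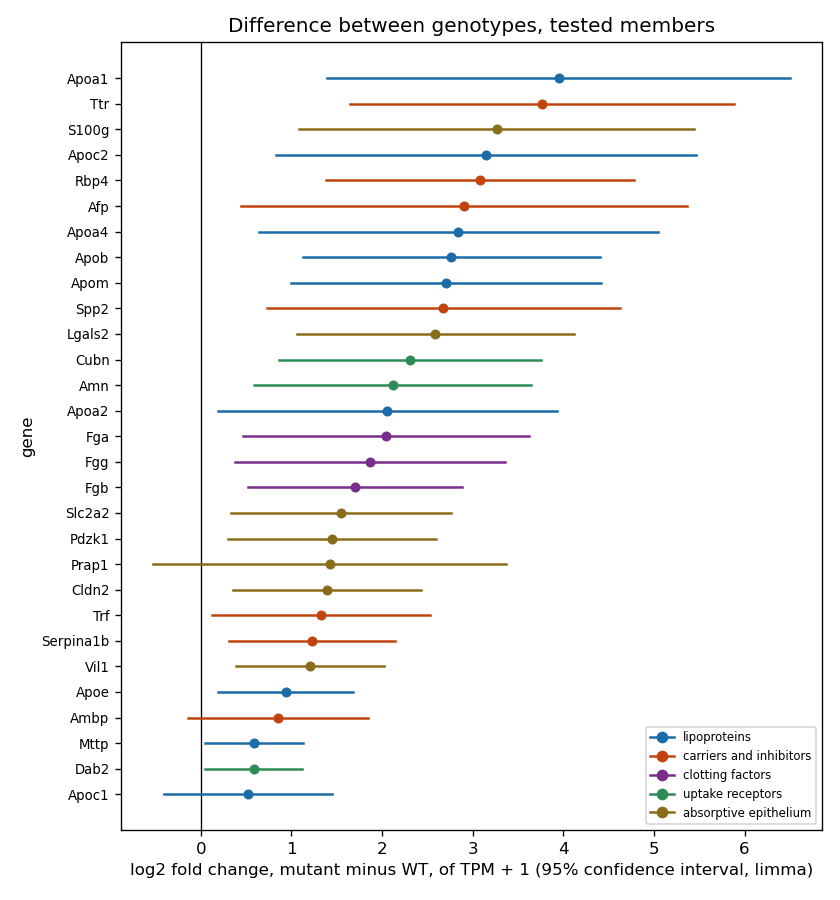
Log2 fold change of TPM + 1, mutant minus WT, for the 29 tested genes (points), with the 95% confidence interval of limma (bars, 4 embryos per genotype) and roles by colour. All 29 points lie above 0, and the intervals of Prap1, Ambp and Apoc1 cross it.

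Promoter letters were examined because most members varied together across embryos. HNF1 proteins bind a paired site of which one side reads GTTAAT. HNF4, FOXA and GATA factors also act in visceral endoderm. Sites of HNF4 were searched as CAAAGTC, those of FOXA factors as TGTTTAC, and those of GATA factors as AGATAA, each on both strands. These letters were chosen after the members' values were seen. RefSeq promoters (build GRCm38.p6) matched 28 of the 32 members, with 34 start sites. In the 250 bases before the start, the HNF1 hexamer was found in 8 of 34 member promoters (23.5%) and in 6.43% of all 32851 promoters. It stood before a start of Afp, Apoc2, Apoe, Dab2, Fga, Fgb, Lgals2 and Serpina1b. The FOXA letters were in 4 (11.8%, against 3.17% of all), the GATA letters in 3 (8.82%, against 9.99%) and the HNF4 letters in 1 (2.94%, against 3.84%). A match of letters is no evidence of binding. The 120 bases before the start of the leading carrier, of Apoc2 and of a pair of neighbouring fibrinogen genes are shown 5′ to 3′ on the gene's strand, with the HNF1 hexamer on either strand in capitals.
Afp, chr5:90490594-90490713, plus strand: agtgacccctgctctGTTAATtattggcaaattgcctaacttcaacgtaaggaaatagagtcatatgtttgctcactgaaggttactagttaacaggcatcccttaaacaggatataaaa
Apoc2, chr7:19677942-19678061, minus strand: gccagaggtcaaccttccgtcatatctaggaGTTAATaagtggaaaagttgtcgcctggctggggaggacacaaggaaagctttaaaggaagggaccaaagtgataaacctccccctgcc
Fga, chr3:83026033-83026152, plus strand: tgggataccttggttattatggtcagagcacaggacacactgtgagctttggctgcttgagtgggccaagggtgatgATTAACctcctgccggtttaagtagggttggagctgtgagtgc
Fgb, chr3:83049864-83049983, minus strand: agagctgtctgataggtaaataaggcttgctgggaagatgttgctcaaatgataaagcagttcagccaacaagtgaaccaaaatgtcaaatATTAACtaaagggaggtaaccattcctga
The hexamer began 105 bases before the RefSeq start in Afp, 89 in Apoc2, 43 in Fga and 29 in Fgb. For Fga the GENCODE gene starts further upstream, at 83026076, so that the hexamer lies within that gene model. The starts of Afp in the 2 annotations differ too.

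Among the lipoprotein genes, Apoa1, the main protein of high-density lipoprotein, reached the highest level. Apoa1 (chromosome 9, 46228580 to 46230466, build GRCm38) was at 1.03, 2.70, 60.3 and 1.23 TPM in WT 1 to 4 and at 298, 167, 46.0 and 23.9 TPM in mutants 1 to 4. WT 3 lay above mutants 3 and 4, and the other 3 WT embryos lay below every mutant. Apoa1 was higher in mutants by 3.95 ± 1.14 on the log2 scale (SE), with a limma adjusted p of 0.281 and an exact permutation p of 0.0857. The smallest p that 4 embryos against 4 allow in the two-sided exact permutation test is 0.0286. Apoa4, an apolipoprotein of intestinal lipid export, lies beside Apoa1 at 46240696 to 46243459 and was likewise highest in mutants 1 and 2, then WT 3, at a lower level. It was at 0.117, 0.148, 8.42 and 0.0866 TPM in WT embryos, or 4, 5, 288 and 3 reads, and at 46.5, 30.4, 8.03 and 1.56 TPM in mutants. Apoa2, the other major protein of high-density lipoprotein, was at 3.17, 5.52, 16.0 and 3.12 TPM in WT and 105, 49.7, 18.6 and 4.50 TPM in mutants, so that mutant 4 lay below WT 2.

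Apob, the scaffold of the large lipid-rich lipoproteins, and Mttp, which loads lipid onto it, are needed together for export but were distributed differently. Apob was at 0.306, 0.425, 8.13 and 0.365 TPM in WT 1 to 4 and 33.6, 25.4, 7.29 and 5.57 TPM in mutants (log2 fold change 2.77 ± 0.73, SE; limma adjusted p = 0.281). Mttp was at 4.52, 5.53, 5.996 and 5.19 TPM in WT and 13.4, 10.7, 5.63 and 6.04 TPM in mutants (0.59 ± 0.24; limma adjusted p = 0.344). Mttp was thus of one level in the 4 WT embryos and in mutants 3 and 4, and higher in mutants 1 and 2 alone, while Apob was near 0 in 3 WT embryos. Without mutant 1 the log2 fold change of Mttp was 0.38.

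The cluster of Apoe, Apoc1 and Apoc2 on chromosome 7 (19671579 to 19699188) held genes of unlike pattern. Apoe, a ligand for lipoprotein receptors that many tissues make, was at 64.6, 64.8, 84.2 and 47.7 TPM in WT and 239, 149, 78.7 and 82.8 TPM in mutants. Only mutants 1 and 2 stood clear of the WT range, and its log2 fold change of 0.94 ± 0.33 (SE; limma adjusted p = 0.317) was 0.62 without mutant 1. Apoc2, the activator of lipoprotein lipase, was at 0.131, 0.132, 8.49 and 0.129 TPM in WT, with 2 reads in each of WT 1, 2 and 4. In mutants Apoc2 was at 65.9, 38.1, 11.5 and 1.61 TPM. An overlapping gene model on the same strand, Gm44805, shares part of Apoc2, so reads of the 2 may have been split. Apoc1, which restrains lipoprotein uptake, was at 2.72, 2.61, 2.78 and 1.97 TPM in WT and 9.78, 5.76, 3.10 and 1.13 TPM in mutants. Mutant 4 was the lowest embryo for Apoc1, with 16 reads, and the log2 fold change of 0.52 ± 0.41 (SE; limma adjusted p = 0.559) was 0.15 without mutant 1 and 0.93 without mutant 4.

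The remaining lipoprotein genes were Apom and Apoh. Apom, a carrier of small lipids on high-density lipoprotein, was at 1.79, 1.70, 16.5 and 1.55 TPM in WT and 79.9, 43.5, 13.01 and 11.04 TPM in mutants (log2 fold change 2.71 ± 0.76, SE; limma adjusted p = 0.281). Apoh, which binds phospholipid in plasma, had 0 to 3 reads in each embryo and was not tested. With 0 reads in WT 1, a level of up to 0.1002 TPM is allowed by counting error (3 reads).

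Among the carriers, Afp, the fetal counterpart of albumin, reached the highest level of any member. Afp (chromosome 5, 90490737 to 90508907) was at 1.95, 14.6, 51.9 and 4.90 TPM in WT 1 to 4 and 319.7, 221, 40.7 and 14.2 TPM in mutants 1 to 4. WT 2 lay above mutant 4 and WT 3 above mutants 3 and 4. On the log2 scale Afp was 2.90 ± 1.10 higher in mutants (SE; limma adjusted p = 0.328). Ttr, which carries thyroid hormone, was at 0.763, 3.86, 37.4 and 1.41 TPM in WT and 187, 119, 35.6 and 31.7 TPM in mutants (3.76 ± 0.94; limma adjusted p = 0.281). Rbp4, the retinol carrier that travels bound to transthyretin, was at 3.37, 8.10, 41.3 and 3.36 TPM in WT and 194, 108, 40.5 and 42.0 TPM in mutants (3.08 ± 0.76; limma adjusted p = 0.281). For both carriers mutants 3 and 4 were nearly level with WT 3, whereas Afp in mutant 4 was nearer to WT 2 than to WT 3.

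Trf, the iron carrier transferrin, had a level of several TPM in every embryo. It was at 5.21, 7.58, 12.6 and 6.83 TPM in WT and 52.1, 36.8, 11.7 and 7.65 TPM in mutants (log2 fold change 1.32 ± 0.54, SE; limma adjusted p = 0.342), so that mutant 4 differed little from WT 2. Spp2, a secreted phosphoprotein, was at 0.215, 0.271, 6.26 and 0.158 TPM in WT and 38.7, 26.2, 5.46 and 2.12 TPM in mutants. Ambp and Serpina1b departed from the common order of embryos. Ambp, the precursor of alpha-1-microglobulin and bikunin, was at 1.17, 6.23, 1.09 and 1.45 TPM in WT and 7.94, 6.05, 2.28 and 3.09 TPM in mutants. WT 2, not WT 3, was its highest WT embryo and exceeded 3 of the 4 mutants (log2 fold change 0.85 ± 0.44, SE; limma adjusted p = 0.410). Serpina1b, a form of alpha-1-antitrypsin, was at 0.176, 1.61, 1.49 and 1.06 TPM in WT and 8.26, 5.21, 2.03 and 1.70 TPM in mutants. Its near-identical paralogs overlap or neighbour it, so its reads may be split among them and its values are uncertain.

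The fibrinogen chains, which form the fibres of a clot, lie together on chromosome 3 (83007724 to 83049863). Fga was at 0, 0.0537, 2.84 and 0.0348 TPM in WT 1 to 4, or 0, 3, 161 and 2 reads, and at 14.9, 9.90, 3.26 and 0.645 TPM in mutants. The 0 reads of WT 1 allow up to 0.0531 TPM of Fga by counting error. Fgb was at 0.0839, 0.763, 2.16 and 0.261 TPM in WT and 10.8, 8.08, 2.21 and 1.49 TPM in mutants, and Fgg at 0.254, 0.823, 2.79 and 0.375 TPM and 17.7, 12.3, 3.21 and 1.03 TPM. The log2 fold changes of Fga, Fgb and Fgg were 2.05 ± 0.70, 1.70 ± 0.53 and 1.87 ± 0.66 (SE), with limma adjusted p values of 0.313, 0.296 and 0.317. WT 3 was level with mutant 3 for all 3 chains, and in WT 2 Fgb had 54 reads and Fgg 32 where Fga had 3. F2, the precursor of thrombin, stayed below 2 TPM, at 0.451 TPM in WT 3 and 1.67 and 1.21 TPM in mutants 1 and 2. The remaining 5 embryos had 0.0348 to 0.196 TPM of F2, which was not tested.

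Of the uptake receptors, Cubn and Amn, whose products form one receptor complex, varied in parallel across embryos. Cubn (chromosome 2, 13276338 to 13491813) was at 0.706, 0.353, 5.06 and 0.189 TPM in WT 1 to 4 and 22.3, 15.8, 5.48 and 2.99 TPM in mutants (log2 fold change 2.31 ± 0.64, SE; limma adjusted p = 0.281). Amn, which brings cubilin to the cell surface, was at 0.433, 0.351, 5.07 and 0.426 TPM in WT and 22.4, 13.9, 4.35 and 2.17 TPM in mutants (2.12 ± 0.68; limma adjusted p = 0.3001). Dab2, the adaptor that draws such receptors into clathrin-coated pits, was at 22.2, 20.9, 25.9 and 20.3 TPM in WT and 57.3, 37.0, 23.3 and 26.3 TPM in mutants. Dab2 varied little among the WT embryos and mutants 3 and 4, and only mutants 1 and 2 were above them (0.58 ± 0.24; limma adjusted p = 0.344). Without mutant 1 its log2 fold change was 0.34.

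Of the 8 genes of the absorptive epithelium, 6 had mutants 1 and 2 highest and WT 1, 2 and 4 lowest, and Prap1 and Fxyd2 did not. S100g, a calcium-binding protein of absorbing cells, was at 1.78, 0.785, 16.9 and 0.546 TPM in WT and 118, 69.5, 16.8 and 6.89 TPM in mutants (log2 fold change 3.27 ± 0.97, SE; limma adjusted p = 0.284). Lgals2, a galectin, was at 0.540, 0.273, 3.86 and 0.531 TPM in WT and 34.5, 19.8, 4.66 and 3.55 TPM in mutants. For both, WT 3 was at the level of mutant 3. Cldn2, a tight junction protein that passes cations and water, Vil1, an actin bundler of microvilli, and Pdzk1, a scaffold for transporters, were each below 1 TPM in WT 1, 2 and 4, between 2.18 and 2.52 TPM in WT 3, and between 7.78 and 11.4 TPM in mutant 1. The glucose transporter Slc2a2 had 2 to 4 reads in WT 1, 2 and 4, and was at 1.49 TPM in WT 3 and 8.19, 4.61, 1.62 and 0.465 TPM in mutants. Fxyd2, a regulator of the sodium pump, was at 0.319, 0.215, 0.636 and 0.170 TPM in WT and 2.73, 1.46, 0.551 and 0.157 TPM in mutants and was not tested. Mutant 4 was thus the lowest embryo for Fxyd2, but on 12 reads against 13 in WT 4, so these embryos were nearly level.

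Prap1, a secreted protein of intestine and uterus, was at 1.12, 0.695, 0.685 and 1.18 TPM in WT and 14.4, 20.5, 0.889 and 0.0847 TPM in mutants. It was the only member higher in mutant 2 than in mutant 1, and WT 3 and mutant 3 showed no more of it than the other WT embryos. Its log2 fold change of 1.42 ± 0.87 (SE; limma adjusted p = 0.456) was 0.73 without mutant 2, 0.89 without mutant 1 and 2.17 without mutant 4.

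Ratios of 2 genes within an embryo show whether members kept their proportions when their common level differed. Such ratios can be compared between embryos. Their absolute size rests on the gene lengths used for TPM, which need not be those of the transcripts made. A ratio was taken where both genes were at 1 TPM or more, which for most of the 14 pairs left WT 3 and the 4 mutants. Some pairs varied little there and others more. Cubn/Amn was 0.998 in WT 3 and 0.997, 1.13, 1.26 and 1.38 in mutants 1 to 4. Fga/Fgb was 1.31 in WT 3 and 1.38, 1.23 and 1.48 in mutants 1 to 3, but 0.434 in mutant 4, where Fga was under 1 TPM. Apom/Apob was 2.02 in WT 3 and 2.38, 1.71, 1.79 and 1.98 in mutants.

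Rbp4/Ttr was 1.11 in WT 3 and 1.04, 0.913, 1.14 and 1.32 in mutants 1 to 4, near equal TPM. In WT 2 the ratio was 2.10 and in WT 4 it was 2.37. Afp/Ttr was 3.79 and 3.47 in WT 2 and 4, 1.39 in WT 3 and 1.71, 1.86, 1.14 and 0.446 in mutants, with mutant 4 at the low end. Trf/Ttr was 0.336 in WT 3 and 0.279, 0.311, 0.330 and 0.241 in mutants, and 1.96 and 4.83 in WT 2 and WT 4. WT 2 and WT 4 thus had other proportions than WT 3 and the mutants, with relatively more Trf, Afp and Rbp4 for each Ttr.

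Mutant 4 differed in several ratios from mutants 1 to 3 and WT 3. Apoa4/Apoa1 was 0.0654 in mutant 4, against 0.156, 0.182 and 0.175 in mutants 1 to 3 and 0.140 in WT 3. Apoc2/Apoc1 was 1.43, on 25 and 16 reads, against 6.74, 6.62, 3.70 and 3.05, and Fgg/Fgb was 0.691 against 1.63, 1.52, 1.45 and 1.29. Apoa2/Apoa1 was the only pair with both genes at 1 TPM in all 8 embryos. It was 3.07, 2.04, 0.266 and 2.54 in WT and 0.352, 0.298, 0.404 and 0.188 in mutants. The log2 ratio averaged 0.52 ± 1.64 in WT (SD, n = 4) and -1.74 ± 0.48 in mutants. The mutants were thus lower, with a difference of -2.26 (two-sided exact permutation p = 0.114). Without WT 3 the difference was -3.07 and no WT ratio lay within the mutant range. The exact permutation p was then 0.0286, which is the lowest that 3 against 4 can give. WT 3 was the only WT embryo within the mutant range. Leaving it out therefore fixed this outcome, and the p carries no weight of its own. With a lower minimum of 0.3 TPM, 7 pairs could be tested and 0 reached an adjusted p under 0.05. Of these Trf/Ttr was 6.83, 1.96, 0.336 and 4.83 in WT, all above every mutant (exact permutation p = 0.0286, adjusted over 7 pairs 0.1).

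**Figure D3:**
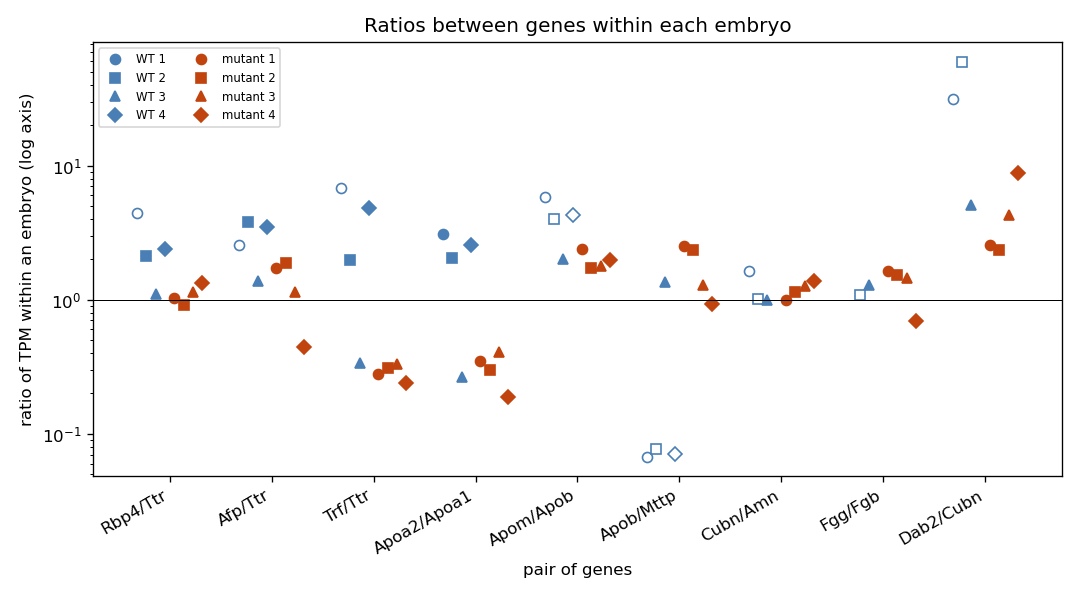
Ratio of TPM of 2 genes within an embryo (log axis) for 9 of the 14 pairs; WT in blue, mutant in red, one marker shape per replicate number. Filled markers have both genes at 1 TPM or more and open markers at 0.3 TPM or more, and WT 3 lies within or next to the range of the mutants while WT 1, 2 and 4 lie apart for Trf/Ttr, Apoa2/Apoa1, Apob/Mttp and Apom/Apob.

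Apob/Mttp and Dab2/Cubn set a gene of narrow distribution against one that every embryo transcribed. Apob/Mttp was 2.50, 2.36, 1.29 and 0.922 in mutants 1 to 4 and 1.36 in WT 3. Dab2/Cubn was 2.57, 2.35, 4.25 and 8.79 in mutants and 5.11 in WT 3. Among these 5 embryos both ratios put mutants 1 and 2 at one end and mutant 4 at the other, with WT 3 and mutant 3 between them. With the lower minimum of 0.3 TPM, Apob/Mttp was 0.0676, 0.0769 and 0.0702 in WT 1, 2 and 4. Dab2/Cubn was then 31.5 in WT 1 and 59.1 in WT 2. These WT embryos thus lay beyond mutant 4, on few reads of Apob or Cubn. Apoe, Dab2, Mttp, Trf and Apoc1, a set picked after its values were seen, made up 82.1%, 66.2%, 30.04% and 76.9% of the summed member TPM in WT 1 to 4. In mutants 1 to 4 the same 5 genes made up 18.1%, 18.8%, 30.3% and 42.5%. Afp, Ttr, Rbp4 and Apoa1, likewise picked after their values were seen, made up 5.89%, 19.1%, 43.6% and 10.2% in WT and 48.7%, 48.2%, 40.3% and 38.4% in mutants.

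Whole profiles were set side by side over members at 1 TPM or more in both embryos of a pair. Mutant 1 over mutant 2 gave a median ratio of 1.55 over 31 genes, with quartiles of 1.42 and 1.71. Of these 30 were above 1, from 1.25 for Mttp to 2.11 for Apoa2, and Prap1 was at 0.703. The 2 embryos thus differed by nearly one common factor. Mutant 3 over WT 3, embryos of different genotype, gave a median of 0.974 over 28 genes, with quartiles of 0.924 and 1.12. The lowest ratio was 0.762 for Apoa1, and the highest were 1.36 for Serpina1b and 2.08 for Ambp.

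Mutant 4 over WT 3 had no such common factor. The median was 0.671 over 25 genes, with quartiles of 0.396 and 0.920. Apoa4 and Apoc2 were lowest, at 0.185 and 0.190, and Spp2, Apoa2 and Afp were at 0.338, 0.281 and 0.273. Apoe, Mttp, Rbp4 and Dab2 were between 0.982 and 1.01, Ttr was at 0.849 and Ambp at 2.83. The SD of the log2 ratio was 0.91 for mutant 4 over WT 3, against 0.27 for mutant 1 over mutant 2 and 0.29 for mutant 3 over WT 3. WT 2 over WT 4 was above 1 for 13 of 13 genes, led by Ambp at 4.30, Afp at 2.99 and Ttr at 2.73.

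**Figure D4:**
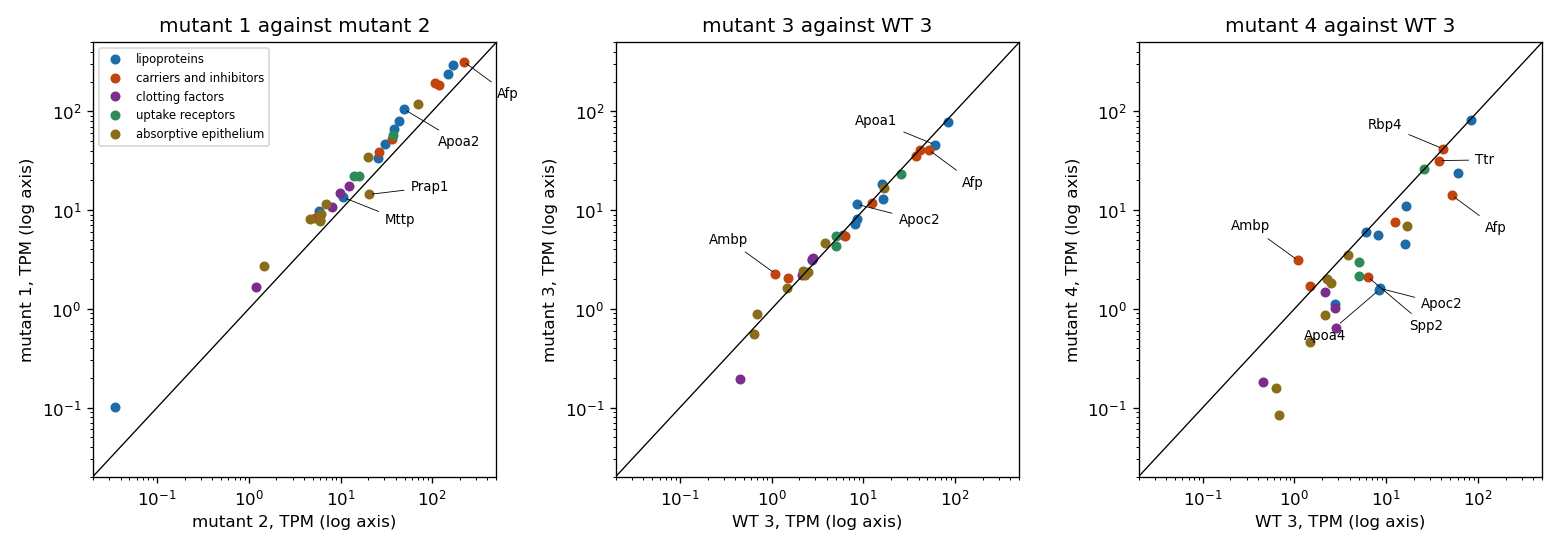
TPM of each gene in one embryo against another (both axes logarithmic, black line of equality, roles by colour; genes at 0 in either embryo are not drawn). Points for mutant 1 against mutant 2 run parallel to the line, those for mutant 3 against WT 3 lie on it, and those for mutant 4 against WT 3 scatter below it, with Apoa4, Apoc2 and Afp low and Rbp4, Ttr and Ambp near or above it.

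Other genes of the same functions were counted from lists chosen by role, and 0 genes of any list passed the test over all genes. Of all 13596 genes tested, 37.7% were higher in mutants. At an unadjusted p under 0.05, 5.55% were higher and 8% lower. These shares are the background for each list here and below. Of the visceral endoderm regulators 9 of 12 tested were higher in mutants, 4 at an unadjusted p under 0.05, with a median log2 fold change of 0.19 (-0.04 over all genes tested). Hnf4a, the regulator of many plasma protein genes, was at 0.110, 0.468, 1.47 and 0.206 TPM in WT and 7.80, 5.05, 1.73 and 1.25 TPM in mutants, with WT 3 the highest WT embryo and above mutant 4. Gata4, which also acts in the heart, was instead at 8.53 to 14.9 TPM in WT and 22.4 to 37.2 TPM in mutants, with no overlap. Gata6 was at 9.41 to 11.1 and 13.9 to 23.2 TPM, and Foxa3 at 0.366 to 0.846 and 1.11 to 2.05 TPM. WT 3 was not the highest WT embryo for Gata4, Gata6 or Foxa3.

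Of 21 endocytic and lysosomal genes 19 were higher in mutants, 7 at an unadjusted p under 0.05, by a median log2 fold change of 0.16. Cltc, the heavy chain of clathrin, was at 140 to 160 TPM in WT and 166 to 187 TPM in mutants. Of 19 other genes of absorptive epithelium and solute transport all were higher (37.7% of all genes tested), by a median of 0.35. At an unadjusted p under 0.05 were 10 of the 19, against 5.55% of all genes tested. Among them Slc13a4, a sulphate transporter, was at 1.24, 0.773, 2.97 and 0.648 TPM in WT and 10.6, 6.65, 2.87 and 2.91 TPM in mutants. Slc2a1, the widespread glucose transporter, was at 423 to 501 TPM in WT and 555 to 706 TPM in mutants, highest in mutant 4, unlike Slc2a2.

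Of 11 other lipoprotein genes 3 were higher and 8 lower, 1 and 0 of them at an unadjusted p under 0.05, by a median of -0.01. Pla2g12b was at 0.270, 0.592, 1.30 and 0.399 TPM in WT and 8.83, 5.40, 2.25 and 1.29 TPM in mutants. Of 8 other clotting genes 7 were higher, 4 at an unadjusted p under 0.05, by a median of 0.38. Serpinf2, which inhibits plasmin, was at 0.413, 3.17, 2.79 and 1.19 TPM in WT and 18.8, 11.3, 4.03 and 3.57 TPM in mutants, and Itih2, which carries hyaluronan, at 0.145, 3.75, 0.240 and 0.901 TPM and 4.83, 5.22, 2.18 and 1.55 TPM. In both WT 2 was the highest WT embryo, as for Ambp, whose product bikunin joins the protein encoded by Itih2. Of 8 other carriers 5 were higher, 1 at an unadjusted p under 0.05, by a median of 0.15. Alb, albumin, was at 0.113 to 0.690 TPM in WT, highest in WT 2, and at 0.179 to 1.64 TPM in mutants.

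The genes most like the members were found by the Pearson correlation, over the 8 embryos, of log2(TPM + 1) with the mean of the 29 tested members. Among the closest of 12680 named genes, between 0.982 and 0.994, were Hnf4a, Slc39a5, Soat2, Slc7a8, Trap1a, Magec2, Pla2g12b, Rhox5 and Car7. This likeness rests on few embryos and was the criterion of choice, so it is a description. Soat2, which esterifies cholesterol for lipoproteins, was at 0.722, 1.10, 2.85 and 0.876 TPM in WT and 8.53, 5.37, 2.26 and 2.18 TPM in mutants. Rhox5, an X-linked homeobox gene, was at 3.73, 3.67, 9.07 and 3.09 TPM in WT and 42.5, 19.7, 8.73 and 5.50 TPM in mutants.

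Markers of other cell types were summed in each embryo, and their part in the differences between members was not tested. Counts of higher markers, here and below, have the same background of 37.7% of all genes tested. At an unadjusted p under 0.05 that background is 5.55%. The 14 genes of yolk sac mesoderm and mesothelium summed to 421 to 474 TPM in WT and 536 to 918 TPM in mutants, with the lowest WT value in WT 3 and the highest in mutant 1. All 13 tested were higher in mutants, 7 at an unadjusted p under 0.05, among them Podxl of vessels and mesothelium, at 141 to 172 and 197 to 301 TPM. None of the 14 was at 0 in a whole group. The 15 genes listed for parietal endoderm, the other endoderm outside the embryo, summed to 863 to 954 TPM in WT and 967 to 1389 TPM in mutants, and 12 of 14 tested were higher. Most of these encode basement membrane proteins that other tissues make too. Gkn2 was at 0 in every embryo but mutant 4, where it was at 0.133 TPM. Mesoderm and parietal endoderm genes thus did not share the high value of WT 3.

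The 20 genes of trophoblast and decidua summed to 385 to 501 TPM in WT and 496 to 902 TPM in mutants, with the highest value in mutant 2. Of these genes 9 of 9 tested were higher. Peg10, at 356 to 444 TPM in WT and 413 to 544 TPM in mutants, made up most of each sum. The sums are therefore no measure of trophoblast or decidua as such. Prl6a1, Prl8a9, Tpbpa and Psg21 were at 0 in all WT embryos and at 0.759 TPM or less in each mutant. Psg25 was at 0 in every embryo but WT 2, where it was at 0.0173 TPM. Prl8a2, of decidua, was at 15.3, 1.20, 9.89 and 1.73 TPM in WT and 49.2, 291, 22.2 and 7.66 TPM in mutants, so that mutant 2 was the highest embryo for it, as for Prap1. The 14 genes of primitive red cells summed to 17361, 34970, 47139 and 59482 TPM in WT 1 to 4 and to 32618, 39682, 63296 and 24686 TPM in mutants 1 to 4. That order differed from the members', with mutant 3 highest and WT 1 lowest.

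The 17 genes of liver bud and gut endoderm summed to 482 to 527 TPM in WT, lowest in WT 3 and highest in WT 2. In mutants they summed to 431 to 496 TPM, and 5 of 14 tested were higher. Most of each sum came from Dlk1, at 140 to 260 TPM, and Sox2, at 103 to 199.6 TPM over the embryos. The sum is therefore no measure of the liver bud. Hhex and Prox1 act in the early liver bud, but not there alone. They were at 2.42 to 2.61 and 3.58 to 6.08 TPM in WT and 2.94 to 4.87 and 5.04 to 6.70 TPM in mutants. Mutant 4 was highest for Hhex and mutant 2 for Prox1. Both genes were among the 5 higher ones, and 9 of the list were lower. Nkx2-1, which had the smallest p of the list, was among the lower genes. It was at 5.62 to 9.89 TPM in WT and 1.59 to 4.37 TPM in mutants. Tat, of mature liver, was at 0 in every embryo but mutant 1, where it was at 0.0445 TPM. The 14 macrophage genes summed to 10.6 to 14.7 TPM in WT and 4.50 to 15.7 TPM in mutants, and 1 of 4 tested was higher.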

How the data were processed

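Each embryo was its own library, made with a TruSeq RNA kit and sequenced on a NovaSeq instrument, per the labels. The authors deposited one table of TPM per gene symbol, 1 column per embryo, scaled by gene length and library total, and the genome build is GRCm38 (mm10) per the submitters' processing notes. The aligner, counter, annotation release and strandedness were not given in the sources used here, so reads of 13 members cannot be told from those of overlapping genes on the other strand. Column names tied each of the 8 columns to one embryo, with 0 left over.

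On log2(TPM + 1), the difference between mutant and WT was fitted with limma (version 3.58.1, R version 4.3.3). The model held genotype alone and used an empirical Bayes trend, and two-sided p-values were adjusted by Benjamini-Hochberg over all genes kept. Fold changes are on the TPM + 1 scale and so understate those of low genes. The fit was tested on simulated data. Reads were recovered with merged exon lengths of GENCODE M21: of genes with a value, 97.5% to 97.7% per library were whole within 0.02 reads. Intervals and floors from reads cover counting error only. Embryos may share a litter, which is not given per embryo, so p-values measure only the spread between these embryos.

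Genes named are the members, up to 4 genes with the smallest p of each list, the 10 most like the members (1 of which is not reported here), and others chosen after their values were seen (Alb, Prox1 and the markers at 0 in a whole group: Tat, Gkn2, Prl6a1, Prl8a9, Tpbpa, Psg21 and Psg25). The members and lists were chosen with earlier results of these data known, as was leaving out mutants 3 and 4 or 1 and 2. Alternatives were other pseudocounts, filters, scaling, array weights, no trend, left-out embryos and a replicate block.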

Additional observations from a re-analysis of the deposited data

Results flagged for a closer look

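A sample far from the other 3 of its group was found 15 times in 102 groups of 4 examined, on a log2 scale, where chance gives about 1 in 20. WT 3 stood above the other WT embryos for Apoa4 (8.42 TPM), Apob (8.13 TPM), Apoc2 (8.49 TPM), Apom (16.5 TPM), Spp2 (6.26 TPM), Fga (2.84 TPM), Amn (5.07 TPM), Slc2a2 (1.49 TPM) and Lgals2 (3.86 TPM), and its Apoa2/Apoa1 ratio of 0.266 was below theirs. WT 2 stood above the other WT embryos for Ambp, at 6.23 TPM. Mutant 4 stood below the other mutants in the ratios Apoa4/Apoa1 (0.0654) and Fgg/Fgb (0.691). WT 4 had the lowest sum of visceral endoderm regulators among WT, 77.9 TPM, and mutant 1 the highest sum of other carriers and protease inhibitors among mutants, 230.9 TPM. The members share their embryos, so these are not independent cases.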

How the results depend on the processing

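All 29 tested members kept the sign of their log2 fold change under every setting but one. Without mutants 1 and 2, Apoc1 turned to -0.25 and Prap1 to -0.41, and the median over members was 0.77. In that fit 3 members were at an unadjusted p under 0.05 in place of 26, while 3369 of 13596 genes were called. The share of all genes at an unadjusted p under 0.05 is not given for the settings of this section. Counts of members at that p, here and below, thus lack a background and only describe the fits. Without mutants 3 and 4 the median was 3.21 and 3 genes were called. Prap1 was among them (log2 fold change 3.26, limma adjusted p = 0.00261, against 0.456 with all embryos). Prap1 was high in mutants 1 and 2 alone, and keeping only these mutants was chosen with earlier results known. The call of Prap1 thus carries no weight of its own. Array weights left 12 members at an unadjusted p under 0.05. Leaving out each embryo in turn called 0 to 1 genes (1 without mutant 2) and gave 19 to 28 members at an unadjusted p under 0.05 and a median of 1.41 (without mutant 1) to 2.61 (without mutant 4). The cause of these shifts was not tested, beyond the fewer embryos in each fit. A pseudocount of 0.1 gave a median of 3.06, since low WT values count for more. With the replicate number as a block, 27 members were at an unadjusted p under 0.05 and 0 genes were called; same-numbered embryos correlated at -0.062, 0.040, -0.19 and -0.25 after centring and 0 of 8 embryos correlated best with its own number, so the numbers do not pair embryos. The log2 difference of Apoa2/Apoa1 was -2.26 and ranged from -3.07 (without WT 3) to -1.90 (without WT 1) over left-out embryos. Without WT 3 the exact permutation p was 0.0286, an outcome fixed by leaving out the only WT ratio within the mutant range. The difference could not be tested at a minimum of 3 TPM. In WT 1, 2 and 4 many members rest on under 10 reads, which limits their ratios.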
